A study of Homo sapiens with 40 samples.

Results

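The genes described here encode the proteins of the cytosolic ribosome, and they were followed in MDA-MB-231 cells after treatment with zoledronate or fluvastatin. Members were all probe sets of the array for which the platform annotation lists a symbol made of RPL or RPS and a number, with or without a final A, or RPLP0 to RPLP2, or RPSA. MDA-MB-231 is an established line of triple-negative breast cancer with mesenchymal traits. The rule found 136 probe sets among 21214 with a listed symbol and 33297 in all. Of the 136, 89 list 1 symbol, and these belong to 56 genes, 36 of the large (60S) subunit with 56 probe sets and 20 of the small (40S) subunit with 33. The other 47 list several symbols, 11 of them a small nucleolar RNA (snoRNA) beside the ribosomal protein and 36 a pseudogene, a readthrough transcript or another gene. Their signal can come from any listed gene, so they are given apart and no gene is named from them.

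Of 76 ribosomal protein symbols that RefSeq gives by the same rule, 67 had a member, and the others were not analysed here. RPL13A, RPS18, RPL6, RPL9, RPL21, RPL36A, RPL37, RPL39, RPS10, RPS12 and RPS26 occur only in probe sets with several symbols. Of the 56 genes, 21 had more than 1 probe set of their own, and 5 member probe sets hold just 2 distinct rows of values, 1 row for RPL41 and 1 for probe sets that list RPS18 with RPS18P9. None of these 5 passed the threshold in any of the 6 comparisons.

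The 6 treated groups were 30 µM zoledronate for 12 h, 24 h and 48 h, 100 µM zoledronate for 24 h, and 2 µM fluvastatin for 12 h and 24 h. Each was set against cells that received the solvent in parallel for the same time (control). The 12 h and 24 h cultures of 30 µM zoledronate and of fluvastatin, with their shared controls at each time, belong to lot I, and the 48 h and the 100 µM cultures, each with its own controls, to lot II. Each of the 10 groups had 4 replicates, stated to be independent, which made 40 arrays. All cells came from 1 cell line grown in serum. Zoledronate is a bisphosphonate that blocks farnesyl diphosphate synthase, and fluvastatin is a statin that blocks HMG-CoA reductase, an earlier enzyme of the mevalonate pathway. According to the design text, 30 µM and 2 µM are the IC50 doses of the 2 agents after 72 h of treatment.

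A ribosome joins a small subunit, which reads the messenger RNA, to a large subunit, which forms the peptide bonds. Its proteins are made in matched amounts in growing cells, largely by control of translation. Most ribosomal protein mRNAs start with a 5′ terminal oligopyrimidine (TOP) tract, a C followed by further C and T, through which the kinase mTOR and the RNA-binding protein LARP1 set how strongly they are translated and how stable they are. MYC drives transcription of these genes, and many of their introns carry snoRNAs, which guide the chemical modification of ribosomal RNA.

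The starts of some members are shown because the tract is the sequence feature that the family shares. Each line gives 20 bases before and 20 bases from a start that RefSeq lists (GRCh38.p14), read 5′ to 3′ on the strand of the gene. The tract is in capitals where the start is a C followed by at least 4 pyrimidines. RPL11 and RPS19 each have a further listed start, without a tract, and RPL32 has further ones, which are not shown.
RPS24, chr10:78033843-78033882, plus strand: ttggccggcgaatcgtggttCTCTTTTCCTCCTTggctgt
RPL35, chr9:124861938-124861977, minus strand: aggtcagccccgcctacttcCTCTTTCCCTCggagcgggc
RPL24, chr3:101686699-101686738, minus strand: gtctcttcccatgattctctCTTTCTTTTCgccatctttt
RPL27A, chr11:8682772-8682811, plus strand: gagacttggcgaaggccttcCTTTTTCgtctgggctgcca
RPL36, chr19:5690275-5690314, plus strand: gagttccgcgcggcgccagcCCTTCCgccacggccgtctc
RPL41, chr12:56116613-56116652, plus strand: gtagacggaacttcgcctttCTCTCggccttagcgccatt
RPL11, chr1:23691786-23691825, plus strand: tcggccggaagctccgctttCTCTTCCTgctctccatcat
RPLP2, chr11:809947-809986, plus strand: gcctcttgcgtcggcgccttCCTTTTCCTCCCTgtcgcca
RPS3, chr11:75399498-75399537, plus strand: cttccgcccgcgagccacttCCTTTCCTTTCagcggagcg
RPS6, chr9:19380217-19380256, minus strand: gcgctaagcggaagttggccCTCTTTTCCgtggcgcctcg
RPS19, chr19:41860235-41860274, plus strand: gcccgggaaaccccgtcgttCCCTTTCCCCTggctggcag
RPL32, chr3:12841563-12841602, minus strand: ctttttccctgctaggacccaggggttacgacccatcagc
RPS15, chr19:1438376-1438415, plus strand: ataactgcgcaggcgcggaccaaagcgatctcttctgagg
Such a tract stood at a listed start in 46 of 61 ribosomal protein genes with an entry (75.4%), with a median length of 8 bases and a range of 5 to 19. It stood in 988 of 15843 protein-coding genes (6.24%) and in 6 of 69 mitochondrial ribosomal protein genes (8.70%). RPL32 and RPS15 had none at a listed start, which describes these windows and says nothing about the transcripts of the cells.

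Values are log2 signals of the RMA method, as deposited. Member probe sets averaged between 6.20 and 13.33 over the 40 arrays, in a table whose array medians lay between 6.19 and 6.33. Of 186 listed probe sets with a mean of at least 12, 37 were ribosomal protein probe sets with 1 symbol and 14 with several. The signal of a probe set depends on its probes, so levels of different probe sets were not read as amounts of RNA. Over all arrays the line's markers VIM, CD44, MSN, CAV1, AXL and ANXA1 averaged between 10.6 and 12.3. ESR1, PGR and GATA3, PTPRC and CD3E, and VWF and CDH5, markers of luminal, blood and endothelial cells, averaged between 3.39 and 6.37. KRT8 and KRT18, also on the list of luminal markers, went the other way and averaged between 10.4 and 11.7. PECAM1, another endothelial marker, averaged 3.62 and 5.93 in its 2 probe sets, with 7.25 on its highest array, and CD14 and HBB averaged 6.11 and 5.39. In bulk RNA scaled to a common distribution, fewer cells and less RNA per cell cannot be told apart.

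Most calls among ribosomal protein genes came at 100 µM zoledronate. The threshold for a change was an adjusted p of 0.05 in limma's fit of all 40 arrays (Benjamini-Hochberg over 21214 probe sets, n = 4 pairs). The fit holds a replicate block, a term for each set of arrays that share lot, time and replicate number. At 100 µM zoledronate 42 of 136 fell and 0 rose, where 16.3% of all listed probe sets fell and 15.2% rose. These shares depend on signal strength. At a mean of at least 10, a value chosen after seeing the data, 20 of 69 members with 1 symbol fell (29.0%). Of all listed probe sets of that range 42.6% fell. Below 10, 12 of 20 members with 1 symbol fell, where 14.1% of all did. That range holds 19563 of the 21214 listed probe sets, and the median of the means over all listed ones was 6.96. Within it the members were not matched by signal to the others, so the 2 shares are not a like comparison. After 30 µM zoledronate 0 of 136 passed at 12 h, at 24 h or at 48 h, where 0% fell at 12 h and 24 h and 4.16% fell and 3.07% rose at 48 h. At an unadjusted p under 0.05 limma gave 2, 1 and 12 members at these times. After fluvastatin 0 passed at 12 h, with 11 at an unadjusted p under 0.05, where 0.519% of all fell and 0.297% rose. At 24 h of fluvastatin 2 fell, where 3.46% of all fell and 6.41% rose.

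**Figure D1:**
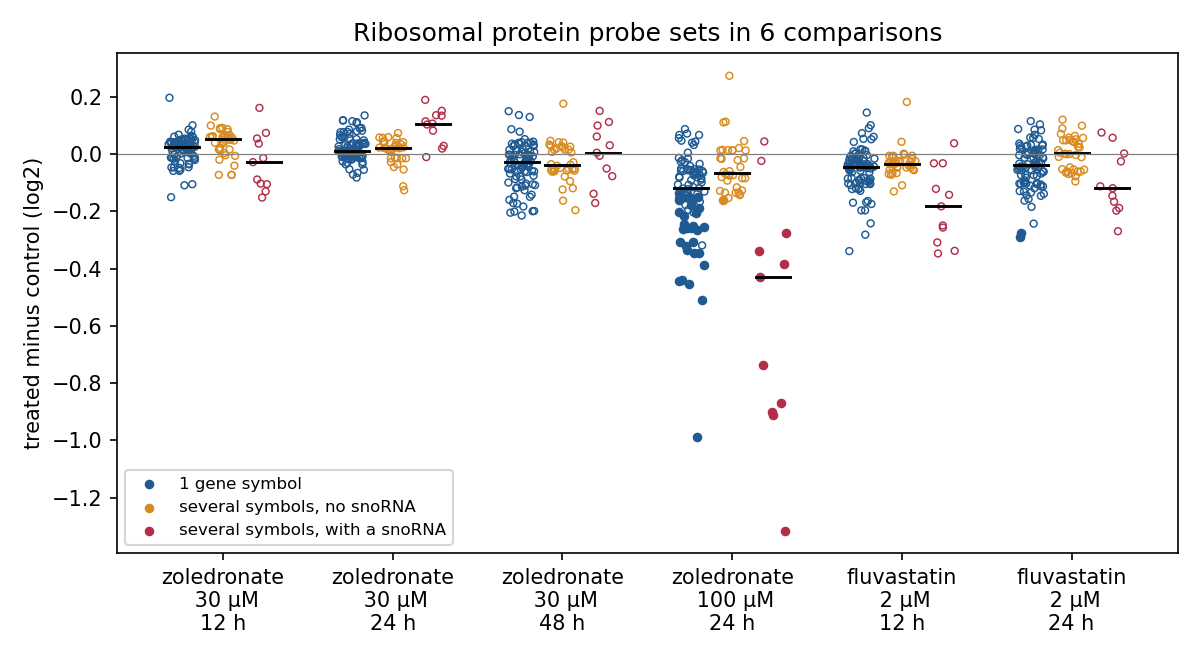
Treated minus control (log2, vertical axis) of the 136 ribosomal protein probe sets in each of the 6 comparisons (horizontal axis), by how many symbols they list. Filled points passed the threshold, black bars are medians. The 42 probe sets that fell at 100 µM zoledronate are the main group of filled points, and 9 of the 11 that list a snoRNA are among them. After quantile normalization anew the count there was 24 lower and 3 higher, where 2924 of all 21214 listed probe sets were lower and 3649 higher.

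The median difference over the 89 probe sets with 1 symbol was −0.12 at 100 µM zoledronate, beside 0.01 over all listed probe sets. In the other comparisons it was 0.03, 0.01 and −0.03 at 12 h, 24 h and 48 h of 30 µM zoledronate, and −0.04 at both 12 h and 24 h of fluvastatin. The value at 12 h of fluvastatin rests mostly on replicate 1, as its pair medians were −0.12, −0.04, 0.01 and −0.003. Over all 136 members it was −0.043, −0.0111 without replicate 1 and −0.0127 after quantile normalization of the deposited values once more. After that new normalization the median of the 89 at 48 h was 0.01, of the other sign. At 100 µM, 77 of 136 members were lower in 4 of 4 pairs, against 23.3% of all listed probe sets. In the other comparisons, 2, 5 and 10 of 136 members were lower in 4 of 4 pairs at 12 h, 24 h and 48 h of 30 µM zoledronate, where 4.71%, 7.9% and 9.98% of all were. After fluvastatin 27 at 12 h and 30 at 24 h were, where 11% and 16.1% of all were. At 100 µM, for 42 of 136 every treated array lay below every control array, against 17.2% of all. Such a separation held for 0, 0 and 3 members at 12 h, 24 h and 48 h of 30 µM zoledronate, where it held for 0.42%, 1.15% and 4.24% of all, and for 1 member at each time of fluvastatin, where it held for 1.96% and 3.69% of all. At 100 µM the pair medians over the 89 were −0.10, −0.09, −0.12 and −0.13, so the shift was alike in the 4 pairs and small in each. Its size depended on the scaling. When the deposited values were quantile normalized once more over all arrays, the median of all 136 members was −0.02 instead of −0.10, and 24 fell while 3 rose. Of all 21214 listed probe sets 2924 then fell and 3649 rose, against 3457 and 3214 in the deposited scaling. The share of members that fell thus lay closer to that of all listed probe sets after the new normalization. Among members with 1 symbol 16 then fell and 1 rose, against 32 and 0 in the deposited scaling. Without the replicate block in the fit 12 of these fell.

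At 100 µM, 23 of 56 large-subunit probe sets fell, with a median of −0.14, where 16.3% of all listed ones fell. Most members with 1 symbol, 69 of 89, had a mean of at least 10, and of all listed probe sets of that range 42.6% fell. For neither subunit was the share set against probe sets of like signal. After the new normalization 13 fell with a median of −0.05, and without the replicate block 9 fell. Of 33 small-subunit probe sets 9 fell, with a median of −0.08. After the new normalization 3 fell and 1 rose, with a median of 0.01, of the other sign, and without the block 3 fell. By gene, 21 of 36 large-subunit and 8 of 20 small-subunit genes had a probe set that fell. The same count was not made over all listed genes, and a gene with several probe sets is more readily counted. Whether the subunits differ from each other was not tested.

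Among the large-subunit proteins the greatest fall was that of RPL32. Its probe set 8085407 read 7.94, 7.85, 7.60 and 7.51 at 100 µM, against 8.79, 8.67, 8.82 and 8.59 in control cells. The groups did not overlap. The difference was −0.99 ± 0.11 (SE, adjusted p = 1.5e-07 by limma), so the signal at 100 µM was 0.504 of that in control cells. RPL32 also stood out by its controls. The 4 control arrays, from 8.59 to 8.82, lay above every array of the other 8 groups, which ran from 7.32 to 8.09, and the 4 arrays at 100 µM, from 7.51 to 7.94, lay within that span.

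RPL23, which can also bind MDM2, the ligase that marks p53 for degradation, read 8.75, 8.69, 8.42 and 8.36 at 100 µM, against 8.98 to 9.04 on the 4 control arrays (mean 9.01 ± 0.03). It fell by 0.45 ± 0.09 with no overlap (adjusted p = 0.000437, limma). RPL5 and RPL11 bind 5S ribosomal RNA together, and free of the ribosome both can bind MDM2. The RPL5 probe set 7903010 read 8.36, 8.37, 8.18 and 8.11 at 100 µM, against 8.64, 8.56, 8.71 and 8.65 in control cells, and it fell by 0.39 ± 0.07 (adjusted p = 5.33e-05, limma). RPL11 was 12.26 ± 0.06 at 100 µM and 12.37 ± 0.05 in control cells (SD, n = 4 each), a difference of −0.11 ± 0.06 that did not pass (adjusted p = 0.192).

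RPL41, the smallest ribosomal protein, had 1 dim probe set that read between 6.82 and 7.03 on the 4 arrays at 100 µM (mean 6.97 ± 0.10), against 7.52, 7.31, 7.30 and 7.53 in control cells. It fell by 0.44 ± 0.11 (adjusted p = 0.00342, limma), with an adjusted p of 0.0703 without replicate 4. RPL3, which reaches into the peptidyl transferase centre, was 12.52 ± 0.09 at 100 µM and 12.67 ± 0.03 in control cells, a fall of a size common in the family (−0.15 ± 0.06, adjusted p = 0.0448). It did not pass in the fit after the new quantile normalization, with −0.07 and an adjusted p of 0.364, nor without the replicate block (0.162). Of further members chosen after their values were seen, RPL35 fell by 0.34 ± 0.07, RPL17 by 0.34 ± 0.06, RPL37A by 0.32 ± 0.06 and RPL10A by 0.31 ± 0.08, the last with an adjusted p of 0.109 without the block. RPL36 fell by 0.26 ± 0.06 (adjusted p = 0.00183), with 8.74, 8.74, 8.67 and 8.78 at 100 µM, against 9.08, 8.94, 8.92 and 9.02 in control cells. Without the block its adjusted p was 0.0522.

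Among the small-subunit proteins RPS15, which sits at the head of the 40S subunit near the decoding site, had the greatest fall, in its dim probe set 8024304. This read 6.29, 5.78, 5.98 and 5.87 at 100 µM, against 6.50, 6.52, 6.61 and 6.34 in control cells, with a difference of −0.51 ± 0.13 (adjusted p = 0.00358, limma, and 0.0558 without replicate 2). RPS24, one of the genes mutated in Diamond-Blackfan anaemia and chosen here after its values were seen, read 10.49, 10.46, 10.30 and 10.12 at 100 µM, against 10.94, 10.78, 10.71 and 10.70 in control cells. It fell by 0.44 ± 0.07 with no overlap between the groups (adjusted p = 5.6e-05). Smaller falls, also named after their values were seen, were those of RPS7 (−0.31 ± 0.07), RPS13 (−0.24 ± 0.07), RPS16 (−0.20 ± 0.05) and RPS14 (−0.20 ± 0.06). After the new normalization RPS13, RPS14 and RPS16 did not pass (adjusted p = 0.128, 0.331 and 0.131), and without the block RPS7, RPS13 and RPS14 did not (0.0767, 0.127 and 0.29).

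Other members best known from work on ribosomes did not pass at 100 µM. RPS6, the protein phosphorylated by S6 kinase downstream of mTOR, read 11.55, 11.56, 11.51 and 11.45, against 11.65, 11.59, 11.61 and 11.55 in control cells, a difference of −0.08 ± 0.05 (adjusted p = 0.273, limma). It was lower in 4 of 4 pairs, with groups that overlap. RPS3, which lies at the entry of the mRNA channel, differed by −0.06 ± 0.05 (adjusted p = 0.412), and RPS19, the gene most often mutated in Diamond-Blackfan anaemia, by −0.06 ± 0.06 (adjusted p = 0.543). The stalk proteins RPLP1 and RPLP2, which recruit elongation factors, differed by −0.12 ± 0.06 and −0.14 ± 0.06 for the 2 probe sets of RPLP1 and by −0.09 ± 0.07 for RPLP2, and none passed (adjusted p from 0.0621 to 0.369). RPS29, among the dimmest members, differed by −0.06 ± 0.09 (adjusted p = 0.725). RPL12, a base of the stalk whose probe set 8063473 is among the brightest, read 12.99 ± 0.06 at 100 µM and 13.04 ± 0.01 in control cells (adjusted p = 0.501).

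**Figure D2:**
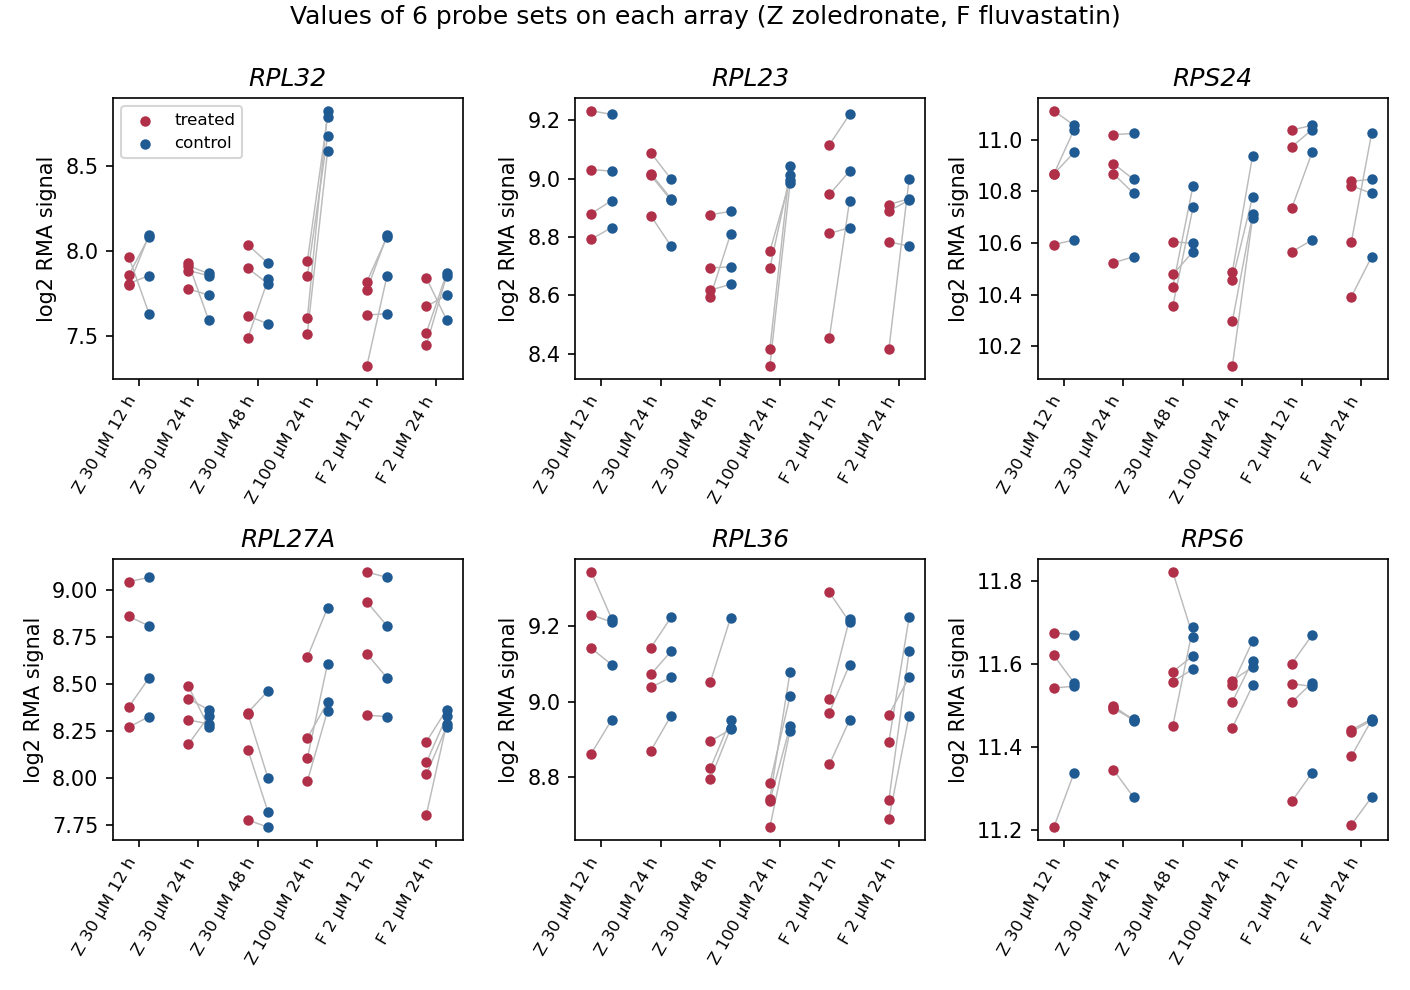
Log2 RMA signal (vertical axis) on each array for 6 probe sets in the 6 comparisons (horizontal axis, Z zoledronate, F fluvastatin), treated cells in red left of control cells in blue, lines joining the pairs. RPL32 at 100 µM shows control arrays between 8.59 and 8.82, above every other group. RPS24 and RPL23 are lower at 100 µM, and RPS6 shows groups that overlap. The same lot I control arrays stand beside both agents, since zoledronate and fluvastatin share them.

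The fall at 100 µM was uneven over signal strength. Split at a mean of 10, a value chosen after seeing the data, 12 of 20 probe sets with 1 symbol below it fell, with a median of −0.26, where 14.1% of all listed probe sets of that range fell and their median was 0.02. Of 69 probe sets at or above 10, 20 fell (29.0%), with a median of −0.08, where 42.6% of all listed probe sets of that range fell and their median was −0.13. After quantile normalization anew the medians were −0.23 below 10 and 0.01 at or above 10, with 10 lower below 10 and 6 lower and 1 higher at or above it. Without the replicate block 7 fell below 10 and 5 at or above it. Over the 89 probe sets the difference and the mean signal had a Pearson r of 0.55 and a Spearman rho of 0.49. This is a description across probe sets, which share the same 40 arrays and in part the same gene.

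**Figure D3:**
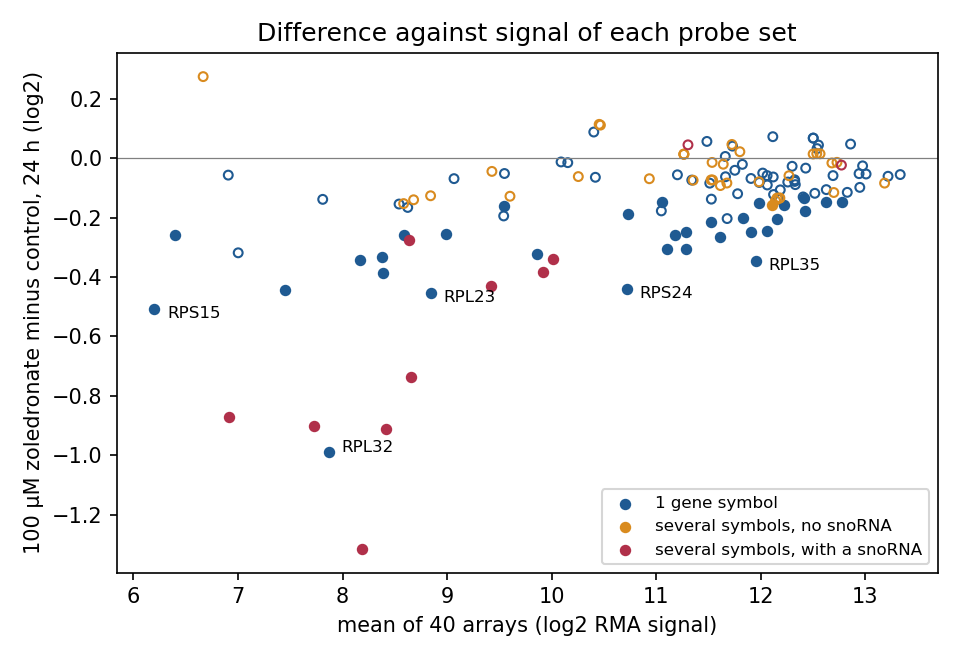
Difference between 100 µM zoledronate and control at 24 h (log2, vertical axis) against the mean signal over 40 arrays (log2, horizontal axis) for the 136 members, by how many symbols they list, with filled points past the threshold. The greatest falls, RPL32 with −0.99 among them, lie at means below 10, and the probe sets with 1 symbol at or above 10 lie between −0.44 and 0.09. After the new normalization the median of the 69 probe sets at or above 10 was 0.01.

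Probe sets of the same gene often gave different calls. At 100 µM, 11 of the 21 genes with several probe sets had some that fell and some that did not, 9 had none that fell, and 1, RPL24, had all of its probe sets fall (−0.25 ± 0.05 and −0.27 ± 0.06), 1 of them not without the replicate block (adjusted p = 0.0569). RPL41 was the gene whose probe sets lay more than 0.5 apart. Beside the dim one that fell by 0.44, its bright pair of identical rows read 12.55, 12.50, 12.56 and 12.69 at 100 µM, against 12.51, 12.63, 12.46 and 12.42 in control cells, a difference of 0.07 ± 0.10 (adjusted p = 0.682, limma). RPL5 had a brighter probe set with a mean of 13.33 that read 13.40 ± 0.06 at 100 µM and 13.46 ± 0.03 in control cells, and another at 12.52 with a difference of −0.12 ± 0.06, neither of which passed (adjusted p = 0.544 and 0.113). For RPL13 the dim probe set fell (−0.26 ± 0.09, adjusted p = 0.0359, 0.0649 after the new quantile normalization and 0.0859 without the block), while its brighter ones differed by 0.01 and 0.04. RPL34 had a dim probe set that fell with overlapping groups and 3 of 4 pairs lower (−0.26 ± 0.09, adjusted p = 0.0219) and a bright one that differed by −0.03 ± 0.06. The dim one did not pass in 7 of 13 alternatives, with adjusted p of 0.265 without the block, 0.103 without replicate 1, 0.0828 without replicate 2 and 0.193 without replicate 4 among them. The brighter RPS15 probe set read 11.28 ± 0.03 at 100 µM and 11.48 ± 0.13 in control cells, with every treated array below every control array and an adjusted p of 0.0604. Which transcript or locus each probe set reads was not tested.

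**Figure D4:**
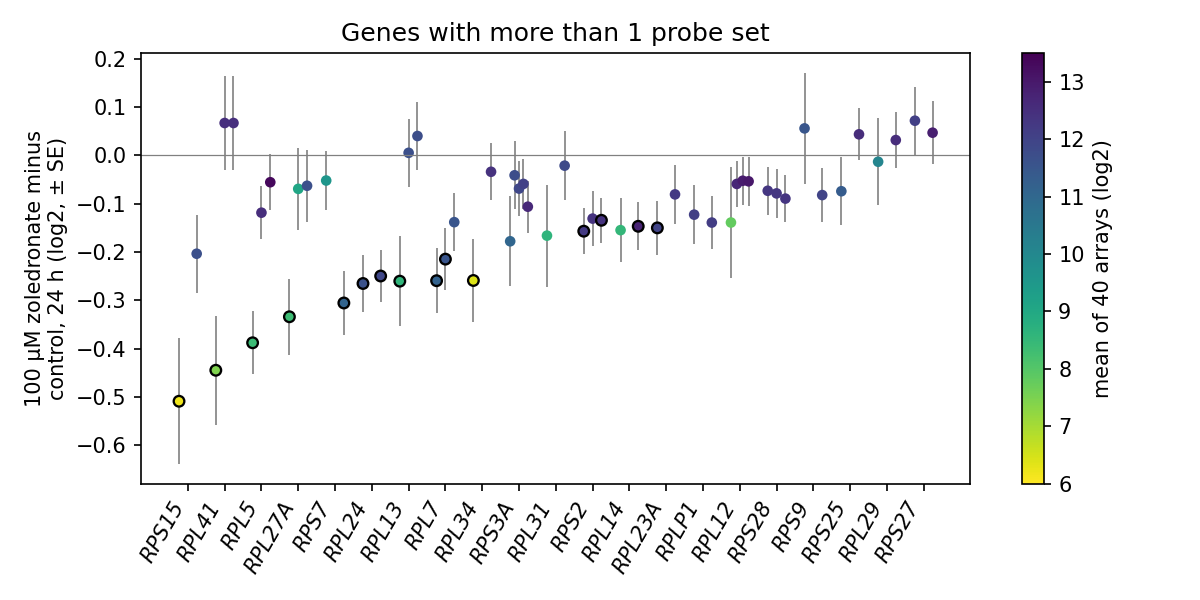
Difference between 100 µM zoledronate and control at 24 h (log2 ± SE, vertical axis) of each probe set of the 21 genes that have several (horizontal axis), coloured by mean signal, with black rims for those that fell. RPL41 spans −0.44 to 0.07 and RPL5 −0.39 to −0.06, with the dim probe sets at the lower end. After the new quantile normalization the median of probe sets at or above a mean of 10 was 0.01.

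The probe sets that list a snoRNA beside a ribosomal protein had the lowest median of the member classes at 100 µM. Of these 11, 9 fell, where 16.3% of all listed probe sets fell, and their median was −0.43. After the new normalization 8 were lower with a median of −0.34, and without the replicate block 6 fell. The probe set that lists SNORD24, a box C/D snoRNA, with RPL7A read 8.16, 7.56, 7.71 and 7.56 at 100 µM, against 9.12, 9.07, 9.28 and 8.77 in control cells. It differed by −1.31 ± 0.10 (adjusted p = 1.53e-09, limma). The one that lists SNORD36A and SNORD36C with RPL7A differed by −0.91 ± 0.10, that of SNORA64 with RPS2 by −0.90 ± 0.17, that of SNORD73A with RPS3A by −0.87 ± 0.13, and that of SNORD68 with RPL13 by −0.74 ± 0.09. In these 5 the groups did not overlap. Of the 9, 7 had their highest mean of all 10 groups in the 24 h controls of lot II, and 4 their lowest at 100 µM. With SNORD73A the means were 6.94 at 100 µM, 7.81 in these controls and 6.51 to 7.01 in the other groups. With SNORD36A and SNORD36C they were 8.26, 9.17 and 8.16 to 8.47. With SNORD24, SNORA64 and SNORD68 the mean at 100 µM lay below all other groups. Probe sets that list the ribosomal protein alone had smaller differences. That of RPL7A fell by 0.25 ± 0.09. The 3 of RPS2 differed by −0.16 to −0.13, of which 2 fell, and these calls of RPL7A and RPS2 were lost without the block and after the new normalization (adjusted p from 0.134 to 0.428). Further, the 5 of RPS3A differed by −0.18 to −0.04, of which 0 passed. Whether the snoRNA, the intron or the mRNA of the host gives the signal of a shared probe set was not tested.

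By RefSeq positions, 20 of the 56 genes hold a snoRNA gene within their span (RPL32, RPL23, RPL5 and RPL17 are among them), a split made after seeing the data. Of their 36 probe sets with 1 symbol 13 fell at 100 µM with a median of −0.10. Of the 53 of the other 36 genes 19 fell with a median of −0.12, where 16.3% of all listed probe sets fell. Below a mean of 10 the medians were −0.34 over 8 probe sets of genes with a snoRNA and −0.23 over 12 of genes without. At or above 10 the order was reversed, with −0.07 over 28 (7 fell) and −0.10 over 41 (13 fell).

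Of the 36 probe sets with several symbols and no snoRNA, 1 fell at 100 µM, where 16.3% of all listed probe sets fell. It lists RPS10 with the readthrough RPS10-NUDT3 (−0.16 ± 0.05, adjusted p = 0.0153, limma, 0.155 without the block and 0.351 after the new normalization). The median of the 36 was −0.07, and 0.03 with 2 higher after the new normalization, so its sign depends on the scaling. The probe set that lists RPL13A with 3 of its pseudogenes read 13.20, 13.21, 13.12 and 13.15 at 100 µM, against 13.27, 13.23, 13.24 and 13.28 in control cells. It differed by −0.08 ± 0.05 with no overlap, and it did not pass (adjusted p = 0.237). The probe sets that list RPS18 with RPS18P9 differed by 0.01 ± 0.06.

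The 42 probe sets were also set against all 10 groups, a description chosen after seeing the data. Of them, 28 had at 100 µM the lowest mean of all 10 groups, and 13 had in the 24 h controls of lot II the highest mean of all 10. Among the 9 that list a snoRNA these counts were 4 and 7. In 4 of the 42 every 24 h control array of lot II lay above every array of the other 8 groups, and in 2 every array at 100 µM lay below them. Within lot II, with 4 groups, 32 of 42 had their lowest mean at 100 µM and 28 their highest in the 24 h controls. Group means of the 2 lots may carry a difference between lots. The 42 were picked as lower at 100 µM than in the 24 h controls of lot II. That choice favours a lowest mean in the former group and a highest in the latter. The same counts were not made over all listed probe sets, so no conclusion is drawn from them.

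A dose of 100 µM for 24 h was also set against 30 µM for 48 h, both in lot II, as a difference of effects, where dose and time change together. Here the effect was lower at 100 µM for 12 members and higher for 0, against 4.24% and 3.71% of all listed probe sets. Each effect is taken against its own controls, so a lower effect need not be a lower signal in treated cells. The 12 were 4 without the replicate block, 7 with only the arrays compared and 5 without replicate 3 or 4. RPL32 had the greatest difference among those with 1 symbol (−0.96 ± 0.15, adjusted p = 0.000347, limma). At 48 h of 30 µM it read 8.04, 7.90, 7.62 and 7.49, against 7.93, 7.81, 7.57 and 7.83 in control cells. At 100 µM RPL32 read 7.51 to 7.94, close to the treated cells at 48 h, against 8.59 to 8.82 in the 24 h controls. RPS15 (−0.65 ± 0.18), RPL27A (−0.48 ± 0.11) and RPL5 (−0.33 ± 0.09) were the others with 1 symbol, and the remaining 8 probe sets list a snoRNA. RPL32 passed in each of 14 alternatives. Of the 13 that held the others, RPS15 was lost in 4 (without replicate 2, 3 or 4 among these), RPL27A in 5 (adjusted p = 0.408 without the block) and RPL5 in 5 (0.0742). For the dim RPS15 and the RPL27A probe sets the effects at 48 h were 0.14 and 0.15, neither past the threshold. RPL27A at 100 µM read 8.64, 8.10, 8.21 and 7.98, against 8.91, 8.61, 8.40 and 8.36 in control cells, with 4 of 4 pairs lower and overlapping groups. Its adjusted p there was 0.00173, and 0.201 without the block.

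At 48 h of 30 µM zoledronate no member passed. RPS24, which fell at 100 µM, read 10.43, 10.36, 10.48 and 10.60 at 48 h, against 10.82, 10.74, 10.57 and 10.60 in control cells. The groups overlapped, and the difference was −0.21 ± 0.07 (adjusted p = 0.0837, limma). The smallest adjusted p of a member with 1 symbol was 0.0574, that of RPL17. The pair medians over the 89 probe sets were −0.09, 0.13, −0.10 and −0.07, so replicate 2 went the other way from the other 3, and without it 4 members passed. RPS6 differed by −0.04 ± 0.05, RPS3 by 0.01 ± 0.05 and RPL3 by 0.01 ± 0.06. At 12 h and 24 h of 30 µM zoledronate the 89 probe sets lay between −0.15 and 0.20 and between −0.08 and 0.14.

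After 24 h of 2 µM fluvastatin RPL27A and RPL36, both proteins of the 60S subunit, fell. RPL36 read 8.89, 8.97, 8.74 and 8.69 after fluvastatin, against 9.22, 9.07, 9.13 and 8.96 in control cells. It was lower in 4 of 4 pairs, with overlapping groups, and differed by −0.27 ± 0.06 (adjusted p = 0.00575, limma). RPL27A read 7.80, 8.19, 8.08 and 8.02 after fluvastatin, against 8.29, 8.36, 8.33 and 8.27 in control cells, with no overlap and a difference of −0.29 ± 0.08 (adjusted p = 0.0205). Its 2 other probe sets differed by −0.08 ± 0.09 and −0.04 ± 0.07 and did not pass. Neither call held without the replicate block (adjusted p = 0.445 for RPL27A and 0.118 for RPL36) or without replicate 1, 3 or 4. At 12 h the lowest member was RPL22, which differed by −0.34 ± 0.14 (adjusted p = 0.279).

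Zoledronate at 30 µM and fluvastatin at 2 µM were compared at the same time points in lot I. At 24 h RPL27A (0.33 ± 0.08, adjusted p = 0.0144, limma) and RPL36 (0.21 ± 0.06, adjusted p = 0.0378) were higher after zoledronate than after fluvastatin, 2 of 136 where 2.76% of all listed probe sets were higher and 3.88% lower. Neither passed without the replicate block (adjusted p = 0.463 and 0.338), with a random block, with only the arrays compared (0.0602 and 0.0885), or without replicate 1 or 4, and RPL36 did not with median centring (0.0511), with all probe sets (0.0579) or without replicate 3. At 12 h 0 members differed by limma, with 14 at an unadjusted p under 0.05, where 0.203% of all were lower and 0.387% higher. Between 24 h and 12 h of fluvastatin 0 members differed, with 5 at an unadjusted p under 0.05, where 0% of all did.

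Proteins of the ribosome that the naming rule leaves out, and related genes, were counted beside the members. FAU, the precursor of RPS30, fell at 100 µM (10.54 against 10.74 in control cells, −0.20 ± 0.07, adjusted p = 0.0259, limma) and after 24 h of fluvastatin (−0.21 ± 0.07, adjusted p = 0.0438), while RPS4X differed by −0.09 ± 0.05 at 100 µM (adjusted p = 0.169). FAU did not pass at 100 µM after the new normalization (adjusted p = 0.402) or without the replicate block (0.229), nor after fluvastatin without the block (0.334) or with median centring (0.0553). Of 10 probe sets for paralogs of ribosomal proteins, 5 fell and 1 rose at 100 µM, where 16.3% of all listed ones fell and 15.2% rose. After the new normalization 3 of the 10 fell and 1 rose, and without the block 2 fell and 1 rose. RPL22L1, a paralog that can replace RPL22, read 7.16, 6.65, 7.03 and 6.88 at 100 µM, against 8.23, 8.12, 8.13 and 8.06 in control cells. It fell by 1.20 ± 0.13 (adjusted p = 1.5e-07), and by 0.52 ± 0.13 at 48 h of 30 µM (adjusted p = 0.0159, and 0.177 without the block), while RPL22 itself differed by −0.32 ± 0.14 at 100 µM without passing (adjusted p = 0.0915). RPL7L1 (−0.23 and −0.25 in 2 probe sets, as RPL7 with −0.26 to −0.14 in 3) and RPL26L1 (−0.23 ± 0.06) also fell. After the new normalization and without the block RPL26L1 (adjusted p = 0.0714 and 0.189) and 1 RPL7L1 probe set (0.271 and 0.0632) did not pass. RPL39L fell by 0.21 ± 0.08 (adjusted p = 0.0493, 0.06 with median centring and 0.246 without the block), and RPL3L, the heart and skeletal muscle form of RPL3, rose by 0.25 ± 0.09 at a dim signal (adjusted p = 0.026).

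Mitochondrial ribosomal proteins, which build the separate ribosome of mitochondria, were counted in the same way. At 100 µM 45 of 77 probe sets fell (58.4%), with a median of −0.26, where 16.3% of all listed ones fell. After the new normalization 41 of the 77 were lower and 2 higher, with a median of −0.19. Without the replicate block 38 fell. MRPL3 read 10.59, 10.53, 10.57 and 10.34 at 100 µM, against 11.09, 11.14, 11.04 and 11.06 in control cells (−0.58 ± 0.06, adjusted p = 1.92e-07, limma). MRPL57 (−0.56 ± 0.06) and MRPL20 (−0.53 ± 0.06) were the others with the smallest p. At 48 h of 30 µM 14 of 77 fell with a median of −0.15, where 0 of 136 cytosolic members and 4.16% of all listed probe sets did. There 13 fell after the new normalization and 0 without the block. After 24 h of fluvastatin 7 of 77 fell, where 3.46% of all did, or 12 after the new normalization, 5 with median centring and 0 without the block. The difference between the 2 families was not tested.

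Of 28 probe sets for other mRNAs with a TOP tract, 10 fell at 100 µM, with a median of −0.12, where 16.3% of all listed ones fell. After the new normalization 6 of the 28 were lower and 2 higher, with a median of −0.04. Without the block 5 fell. EEF1D, a subunit of the exchange factor of elongation factor 1, fell by 0.76 ± 0.12 in 1 probe set and by 0.18 in another, which did not pass after the new normalization (adjusted p = 0.249) or without the block (0.0514). NPM1, a nucleolar chaperone of ribosome assembly, fell in 3 of 4 probe sets (−0.30, −0.28 and −0.25). EEF2 and EEF1A1 lay between −0.02 and 0.02 and did not pass. Dedicated chaperones, which shield single ribosomal proteins before assembly, fell in 4 of 6 in both scalings and without the block, namely GRWD1 (−0.72 ± 0.07), PDCD2L (−0.66 ± 0.07), BCCIP (−0.62 ± 0.11) and TSR2 (−0.40 ± 0.07).

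Of 11 probe sets on the list of regulators, 5 fell and 1 rose at 100 µM, where 16.3% of all listed ones fell and 15.2% rose, and 3 fell and 1 rose without the replicate block. MYC read 8.95, 9.01, 8.91 and 8.81 at 100 µM, against 10.53, 10.62, 10.56 and 10.58 in control cells, and it fell by 1.65 ± 0.10 (adjusted p = 1.33e-10, limma). LARP1 fell by 0.28 ± 0.05 (adjusted p = 0.000247, and 0.128 without the block), EIF4EBP1, which holds back cap-dependent translation, by 0.45 ± 0.09, and DDIT4, an inhibitor of mTOR complex 1, rose by 2.07 ± 0.22. At 48 h of 30 µM, where no ribosomal protein passed, MYC fell by 0.59 ± 0.10 and LARP1 by 0.21 ± 0.05, 2 of 11 where 4.16% of all fell. MYC passed without the block and after the new normalization, and LARP1 in neither (adjusted p = 0.489 and 0.0723). After 12 h of fluvastatin 1 of 11 fell and 1 rose, where 0.519% of all fell and 0.297% rose. These were MYC (−0.44, adjusted p = 0.0411, limma) and DDIT4 (0.91, 0.0438). Neither passed without the block (0.101 and 0.529), nor did MYC after the new normalization (0.0507). After 24 h of fluvastatin 3 of 11 fell and 1 rose, where 3.46% of all fell and 6.41% rose. MYC fell by 0.66 ± 0.10 and DDIT4 rose by 1.26 ± 0.22 (adjusted p = 0.000902, and 0.0765 without the block). LARP1 fell by 0.202 (adjusted p = 0.0178, limma) and EIF4EBP1 by 0.325 (0.0283), and neither passed without the block (0.462 and 0.312). The part of these regulators in the values of ribosomal protein genes was not tested.

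**Figure D5:**
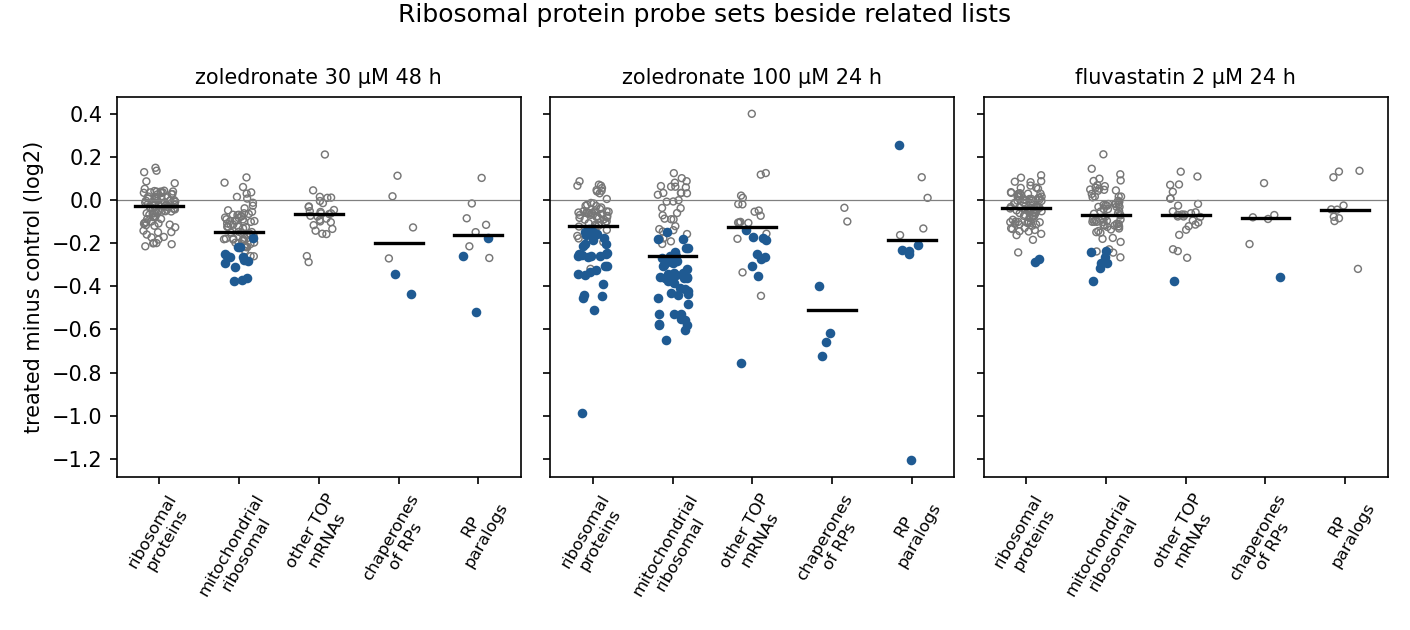
Treated minus control (log2, vertical axis) of ribosomal protein probe sets with 1 symbol and of 4 related lists (horizontal axis) in 3 comparisons. Filled points passed the threshold, black bars are medians. At 100 µM the medians were −0.12 for ribosomal proteins and −0.26 for mitochondrial ones, and −0.04 and −0.19 after the new normalization.

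Returning to the starts printed above, members were split by whether a TOP tract stood at a listed start, with no test. At 100 µM 18 of 58 probe sets (36 genes) with such a tract fell, with a median of −0.10, as did 7 of 15 (11 genes) without one, with a median of −0.15. Of the 9 genes with no entry 7 of 16 fell, with a median of −0.13. Among all listed probe sets 16.3% fell. RPS24 and RPL35, with tracts of 14 and 11 bases, fell, and RPS3 and RPLP2, with tracts of 11 and 13 bases, did not pass. RPL32, without one at any of its 3 listed starts, had the greatest fall.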

How the data were processed

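Total RNA of 40 cultures was hybridised to Affymetrix Human Gene 1.0 ST arrays. The deposited values are log2 signals, made per the submitters' processing notes with RMA in Affymetrix Power Tools 1.10.2, with limma named for their tests. Genome build, and whether lots were normalized together: not given in the sources used here. Symbols come from a platform annotation that lists 1 symbol for 19460, several for 1754 and none for 12083. The members, lists and naming rule were chosen with earlier results of these data known, and some members were named after their values were seen, as stated there.

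One linear model (limma 3.58.1, R 4.3.3, empirical Bayes) was fitted to 21214 probe sets and 40 arrays, with 16 blocks (lot, time and replicate number), 6 treated effects and 18 residual degrees of freedom, and p-values were adjusted by Benjamini-Hochberg, two-sided, threshold 0.05. The fit was tested on simulated data. No low-value filter was applied. The named members were the 4 greatest falls and rises per comparison in 4 of 4 pairs, 12 fixed symbols, of which RPLP0 and RPSA were not analysed here, the 3 brightest and dimmest, and genes whose probe sets disagree. Of related lists, up to 4 members with the smallest p were named, with MYC, LARP1 and paralogs that passed.

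Per the design text, treated and control cultures were paired by day. As a check, each array's deviation from its group mean was correlated with that of its partner: r was 0.18 to 0.61 in lot I, −0.28 to 0.53 at 48 h (2 of 4 pairs over 0.1) and −0.08 to 0.25 at 100 µM (1 of 4). In lot II the pairing rests on the design text. Without the replicate block 18 instead of 42 members were called at 100 µM. The number of arrays limits the precision. Alternatives changed the block (none, random), the samples (those compared, each replicate left out), the scaling (quantile normalization anew, median centring), the features (without the dimmest, leaving 14143, all 33297, 1 per gene) and the variance model (intensity trend, array weights). Starts and gene positions came from RefSeq (GRCh38.p14).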

Additional observations from a re-analysis of the deposited data

Results flagged for a closer look

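With 4 samples per group, 28 groups or results were checked for a sample far from the others, and chance flags about 1 in 20. The median log2 value over the ribosomal protein probe sets with 1 symbol was 11.531 in replicate 4 of fluvastatin at 24 h, below the other 3 arrays of that group, whose median with it was 11.83. At 100 µM zoledronate the median pair difference over all 136 members was −0.127 in replicate 3, farthest from the other 3 pairs.

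Effects differed between agents at 24 h for 2 members, RPL27A (0.325) and RPL36 (0.209), both higher after 30 µM zoledronate than after fluvastatin. The effects of 100 µM zoledronate at 24 h and of 30 µM at 48 h differed for 12 members. In all 12 the effect was lower at 100 µM, which is not the same as a lower signal in the treated cells. RPL32 differed by −0.964, RPS15 by −0.645, RPL27A by −0.484 and RPL5 by −0.328, and the other 8 probe sets list a snoRNA. Each of these is a contrast of the limma fit with an adjusted p under 0.05.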

How the results depend on the processing

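Among called values of the members named by the rule, the only ones checked for this, none changed sign. The median over all members at 48 h of 30 µM, −0.0303, was 0.0057 after quantile normalization anew. RPL32 and RPL23 at 100 µM passed in every alternative run. Across the 14 fits that held all members, which of them to combine being chosen after seeing the data, 14 probe sets fell at 100 µM in each: RPL5 (the dim one), RPL17, RPL23, RPL24 (1 of 2), RPL32, RPL35, RPL37A and RPS24, and 6 that list a snoRNA. The count of 42 there was 18 without the replicate block, 27 after quantile normalization anew (24 lower, 3 higher, of which RPS27 had 1 symbol; median −0.0212), 21 of 56 with 1 probe set per gene, and 24 to 32 with a replicate left out (24 without replicate 4). The 24 lower ones and the 18 were all among the 42. The count of 0 at 48 h of 30 µM was 1 with median centring, 3 without the dimmest probe sets, 4 with an intensity trend, 7 with array weights and 0 to 4 with a replicate left out (4 without replicate 2), and centring gave 403 higher and 969 lower over all listed probe sets, against 651 and 882. The count of 2 at 24 h of fluvastatin was 0 without the block or with only the arrays compared, 1 with a random block or 1 probe set per gene (median −0.0457), and 0 to 3 with a replicate left out (0 without replicate 1, 3 or 4). The median there was −0.0469 after the new quantile normalization and between −0.0342 and −0.0148 with a replicate left out. The 2 differences between agents at 24 h numbered 0 with no block, a random block or only the arrays compared, 1 with centring, all probe sets or 1 probe set per gene, 4 without the dimmest probe sets, with a trend or with weights, and 0 to 3 with a replicate left out (0 without replicate 1 or 4, 1 without replicate 3). The 12 between 100 µM and 48 h numbered 4 without the block, 7 with only the arrays compared, 1 with 1 probe set per gene and 5 to 13 with a replicate left out (5 without replicate 3 or 4). The cause of these changes was not tested, except that 1 probe set per gene leaves 56 members by construction.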
